A study of Homo sapiens with 8 samples.

Results

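The early response genes of the EGR, NAB, NR4A and IER families were measured in CUTLL1 cells, a human T-ALL line that carries a rearranged NOTCH1 gene and depends on NOTCH1 for growth. The list names 10 genes, EGR1, EGR2, EGR3, NAB1, NAB2, NR4A1, NR4A2, NR4A3, IER2 and IER3, and their probe sets were taken by the gene symbol of the array's annotation. The genes were chosen by results of these same arrays, in which EGR1 and IER3 were among the larger rises with γ-secretase inhibitor and EGR1 was lower with the miRNA cluster in inhibitor-treated cells. For those comparisons the values below are therefore a description of the members and no test of them. Of the 10 genes, 9 had a probe set under their symbol, 1 each, and are called measured here, out of 17687 genes named on the array. No probe set was named for EGR2 in the annotation used, and it was not analysed here, although a probe set without a symbol may hold it.

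Immediate early genes are transcribed within minutes of a signal, without new protein synthesis, and many of them encode transcription factors that pass the signal on to later genes. In T cells, the T-cell receptor reaches them through the ERK kinases, which act on the factors SRF and ELK at CArG boxes, and through calcium and cAMP, which act on CREB and NFAT proteins. EGR1, EGR2 and EGR3 are zinc finger factors that help thymocytes through β-selection and positive selection, NAB1 and NAB2 bind EGR proteins as corepressors, and the NR4A receptors are orphan nuclear receptors known for thymocyte death and T-cell tolerance.

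All cells had been transduced with the same GFP lentiviral backbone and sorted, and carried it either empty (Empty-V cells) or with an insert that constitutively expresses the miRNAs of MIR17HG as 1 cluster (cluster cells). Each kind was then cultured for 2 days with 1 µM γ-secretase inhibitor (GSI), which prevents release of the intracellular domain of NOTCH1, or with its solvent DMSO. The 4 groups, Empty-V with DMSO, Empty-V with GSI, cluster with DMSO and cluster with GSI, had 2 arrays each, numbered 1 and 2 by the labels. γ-Secretase also cuts proteins other than NOTCH1, the vector cells are 1 line, and early transcripts were read after 2 days rather than in the first hour.

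The cluster yields 6 main mature miRNAs, which are shown because they are what cluster cells received. Sequences are those of RefSeq, 5′ to 3′, with the seed, bases 2 to 8, in capitals, and all come from the plus strand of chromosome 13.
hsa-miR-17-5p: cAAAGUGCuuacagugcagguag
hsa-miR-20a-5p: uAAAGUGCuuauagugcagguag
hsa-miR-18a-5p: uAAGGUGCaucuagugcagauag
hsa-miR-19a-3p: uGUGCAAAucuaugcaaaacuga
hsa-miR-19b-3p: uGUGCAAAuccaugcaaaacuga
hsa-miR-92a-3p: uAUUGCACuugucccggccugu
The first 2 share the seed AAAGUGC and both miR-19 forms share GUGCAAA, whereas hsa-miR-18a-5p and hsa-miR-92a-3p have seeds of their own. In the motif annotation that the supplementary gene list gives, NR4A3 carries GCACTTT, the match to the seed of hsa-miR-17-5p and hsa-miR-20a-5p, and GTGCAAT, the match to that of hsa-miR-92a-3p. EGR2 carries the same 2 matches, and the 3 motifs listed for EGR3 match no seed of the cluster. That list holds genes selected on these arrays. A gene without an entry there may be outside the selection or may lack the listed motifs, and which of these holds was not checked.

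Promoter windows of RefSeq (GRCh38.p14), 250 bases before and 50 after an annotated start, were found for 7 of the 10 genes, with 12 windows between them. EGR3, NR4A2 and IER3 had no window and were not searched. The windows of EGR1 and NR4A3 are shown because they hold the densest sets of signal-response motifs. EGR1 lies at chr5:138465229-138465528 on the plus strand and NR4A3 at chr9:99821635-99821934 on the plus strand. Capitals mark the CArG box, the site of SRF, and TGACG, the core bound by CREB and ATF proteins, on either strand.
EGR1: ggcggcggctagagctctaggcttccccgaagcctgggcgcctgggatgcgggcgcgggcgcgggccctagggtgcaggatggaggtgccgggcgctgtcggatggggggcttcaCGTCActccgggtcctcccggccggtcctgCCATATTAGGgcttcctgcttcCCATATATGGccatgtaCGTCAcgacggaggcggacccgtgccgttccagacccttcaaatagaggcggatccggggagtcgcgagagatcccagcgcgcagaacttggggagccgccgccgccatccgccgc
NR4A3: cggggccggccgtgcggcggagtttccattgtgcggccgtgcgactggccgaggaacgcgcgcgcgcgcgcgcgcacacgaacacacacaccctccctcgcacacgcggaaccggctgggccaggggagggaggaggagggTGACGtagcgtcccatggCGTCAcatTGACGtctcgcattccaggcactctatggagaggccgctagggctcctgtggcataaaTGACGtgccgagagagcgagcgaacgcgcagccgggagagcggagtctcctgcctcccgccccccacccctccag
The EGR1 window holds 2 CArG boxes, which begin at positions -105 and -83 from the start, and 2 copies of TGACG. CArG boxes occur in 1.29% of all 35114 windows of the same length. The third window of EGR2 holds 1 CArG box and 2 copies of TGACG. The NR4A3 window holds 4 copies of TGACG and no CArG box, and TGACG occurs at least once in 24.6% of windows. IER2 has 1 TGACG, as has each of the 3 windows of NAB1. The first and second NAB1 windows overlap and share the same copy. The EGR motif GCGNGGGCG, present in 9.43% of windows, was found in those of EGR1, NAB1 and NAB2 among the measured members. The ETS core GGAAG is in 71.9% of windows, and 1 copy in EGR1 overlaps the second CArG box by 1 base. The NR4A motif AAAGGTCA, in 1.22% of windows, has no match in any of the 12. A match describes letters in a window and not a bound site.

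**Figure D1:**
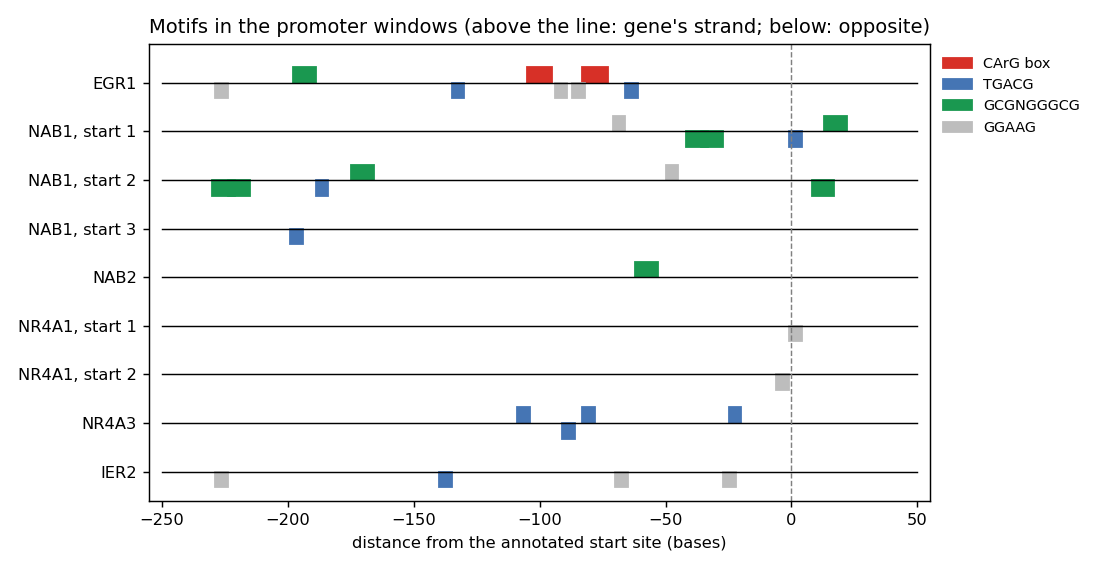
Motifs in the promoter windows of the measured members that have one, by distance in bases from the annotated start (dashed line); boxes above a line are on the strand of the gene and boxes below it on the other. Among the measured members with a window, EGR1 is the one with CArG boxes, 2 of them, and NR4A3 has 4 TGACG copies. EGR3, NR4A2 and IER3 have no window.

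The arrays were alike within groups, with a Pearson r of 0.994 to 0.995 across probe sets, which are not independent, and a median absolute difference between both arrays of a group of 0.19 to 0.22 on the log2 scale. GSI had acted in both kinds of cells. NRARP, a direct NOTCH1 target, was at 9.98 to 10.33 in Empty-V cells with DMSO and at 4.26 to 4.54 with GSI, and at 10.24 to 10.51 and 4.19 to 4.46 in cluster cells. HES1, the other check, fell to 5.89 to 6.15 with GSI in Empty-V cells and less far, to 6.69 to 6.91, in cluster cells. Whether this bears on the values below was not tested. Of the T-cell lineage markers, 17 of 17 measured lay above 5.32, the median of all values, on every array, and 0 of 5 erythroid, 1 of 9 myeloid and 2 of 6 B-cell markers did. The mean of the T-cell markers was itself higher with GSI, at 11.79 to 11.92 against 11.32 to 11.40 in Empty-V cells and at 11.76 to 11.77 against 11.39 to 11.41 in cluster cells, and the part of this shift in the values below was not tested. Of the markers of those other cell types 1, the myeloid gene CD68, passed for GSI across vectors, with a log2 difference of 0.61 at values from 4.36 to 5.41. Having 2 arrays in a group limits precision, and p-values measure the spread between these cultures only.

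EGR1 (GRCh38.p14, chromosome 5, 138465479 to 138469303) gave the widest range of the members. Its log2 values on arrays 1 and 2 were 6.52 and 7.10 in Empty-V cells with DMSO, 12.52 and 12.12 in Empty-V cells with GSI, 6.05 and 5.84 in cluster cells with DMSO, and 9.64 and 10.00 in cluster cells with GSI. The 4 groups did not overlap, and both kinds of cells were high with GSI, with cluster cells between the Empty-V cells with GSI and either group with DMSO. The log2 difference between GSI and DMSO was 5.51 (SE 0.24) in Empty-V cells, a fold of 45.6 and the 3rd largest absolute difference on the array. It was 3.88 (SE 0.24), a fold of 14.7 and the 10th largest, in cluster cells. Between vectors under GSI, EGR1 differed by -2.50 (SE 0.24) on the log2 scale with the cluster, 5.66-fold lower. In bulk RNA, fewer cells that express a gene and less RNA per cell cannot be told apart.

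Both cluster arrays lay below both Empty-V arrays under each treatment, so any pairing of arrays gives EGR1 a lower value with the cluster. Under GSI, cluster minus Empty-V gave a log2 difference in EGR1 of -2.88 in set 1 and -2.12 in set 2. Under DMSO, a comparison in which no member had been named beforehand, it gave -0.47 and -1.26, a mean difference of -0.87 (SE 0.24, 95% interval -1.41 to -0.32). Although both cluster arrays lay below both Empty-V arrays, this did not pass in limma after Benjamini-Hochberg adjustment over all probe sets (adjusted p = 0.321).

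EGR3 (chromosome 8, 22687659 to 22693480) is the EGR family member induced with EGR2 after T-cell receptor signals. Its values, all below the median of all values, were 2.91 and 2.54 in Empty-V cells with DMSO and 4.32 and 4.45 with GSI, and 2.85 and 3.23 in cluster cells with DMSO and 3.57 and 2.98 with GSI. The Empty-V arrays with GSI stood apart above the other 6. The log2 difference with GSI was 1.66 (SE 0.24) in Empty-V cells. The cluster cells gave 0.24 (SE 0.24, 95% interval -0.30 to 0.77). At values this near the array's lower end, the size of a fold is uncertain.

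The NAB corepressors, of which NAB2 is induced by EGR1 in other cell types and limits its activity, varied little. NAB1 (chromosome 2, 190648895 to 190692766) had values of 8.46 and 8.55 in Empty-V cells with DMSO, 8.41 and 8.19 with GSI, 8.18 and 8.13 in cluster cells with DMSO, and 8.47 and 8.38 with GSI. NAB2 (chromosome 12, 57089114 to 57095476) had 4.63 and 5.04, 4.81 and 4.66, 4.62 and 4.22, and 4.56 and 4.75 in the same order. All NAB1 values thus lay within 8.13 to 8.55, and those of NAB2 were below the median of all values on every array. The log2 difference with GSI across vectors was 0.03 (SE 0.11) for NAB1 and 0.07 (SE 0.15) for NAB2, neither of which passed.

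NR4A1 (chromosome 12, 52022832 to 52059503), known as NUR77 and widely used as a reporter of T-cell receptor signals, was above the median of all values on every array. Its values were 7.04 and 7.14 in Empty-V cells with DMSO, 8.71 and 7.96 with GSI, 7.51 and 7.27 in cluster cells with DMSO, and 8.24 and 8.33 with GSI. Every array with GSI was above every array with DMSO, and the vectors overlapped under GSI. The log2 difference with GSI was 1.25 (SE 0.24) in Empty-V cells and 0.90 (SE 0.24) in cluster cells, of which the first passed. Under GSI the log2 difference between vectors was -0.05 (95% interval -0.58 to 0.48), with opposite signs in set 1, -0.47, and set 2, 0.37.

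NR4A2 and NR4A3, the other nuclear receptors of the family, were both below the median of all values. NR4A2 (chromosome 2, 156324437 to 156332721) had 3.67 and 3.02 in Empty-V cells with DMSO, 4.45 and 4.21 with GSI, 3.69 and 3.82 in cluster cells with DMSO, and 3.52 and 3.70 with GSI. NR4A3 (chromosome 9, 99821885 to 99866891) had 3.54 and 3.54, 4.43 and 5.04, 4.05 and 3.63, and 3.36 and 3.74 in the same order. For both genes the Empty-V arrays with GSI were above the other 6, as for EGR3. The log2 difference with GSI in Empty-V cells was 0.99 (SE 0.22) for NR4A2 and 1.20 (SE 0.24) for NR4A3. In cluster cells it was -0.15 (95% interval -0.65 to 0.36) and -0.29 (95% interval -0.84 to 0.26). NR4A3 differed with the cluster by -1.19 (SE 0.24) under GSI and by 0.30 (SE 0.24, adjusted p = 0.736 in limma) under DMSO.

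IER2 (chromosome 19, 13150411 to 13154911) encodes a short-lived nuclear protein induced by growth factors. It had values of 6.75 and 7.33 in Empty-V cells with DMSO, 8.73 and 8.08 with GSI, 7.83 and 7.27 in cluster cells with DMSO, and 8.20 and 8.54 with GSI. As for NR4A1, every array with GSI was above every array with DMSO. The vectors overlapped under each treatment. The log2 difference with GSI was 1.37 (SE 0.29) in Empty-V cells and 0.82 (SE 0.29) in cluster cells, and between vectors under GSI it was -0.04 (95% interval -0.70 to 0.63). The sets differed widely, with a GSI difference in Empty-V cells of 1.98 in set 1 and 0.75 in set 2.

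IER3 (chromosome 6, 30743199 to 30744547) is a stress-induced gene also called IEX-1 that modulates ERK signalling and cell survival. It was the member nearest to EGR1 in values centred on their mean. Its values were 8.38 and 8.85 in Empty-V cells with DMSO, 12.65 and 12.66 with GSI, 8.57 and 8.80 in cluster cells with DMSO, and 11.41 and 11.55 with GSI. Without GSI the vectors overlapped, and with GSI both cluster arrays lay below both Empty-V arrays. The log2 difference with GSI was 4.04 (SE 0.19) in Empty-V cells and 2.80 (SE 0.19) in cluster cells, folds of 16.4 and 6.94. Under GSI the log2 difference between vectors was -1.18 (SE 0.19), 2.26-fold lower with the cluster, at -1.24 in set 1 and -1.11 in set 2, and under DMSO the log2 difference was 0.07 (SE 0.19, adjusted p = 0.937 in limma).

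**Figure D2:**
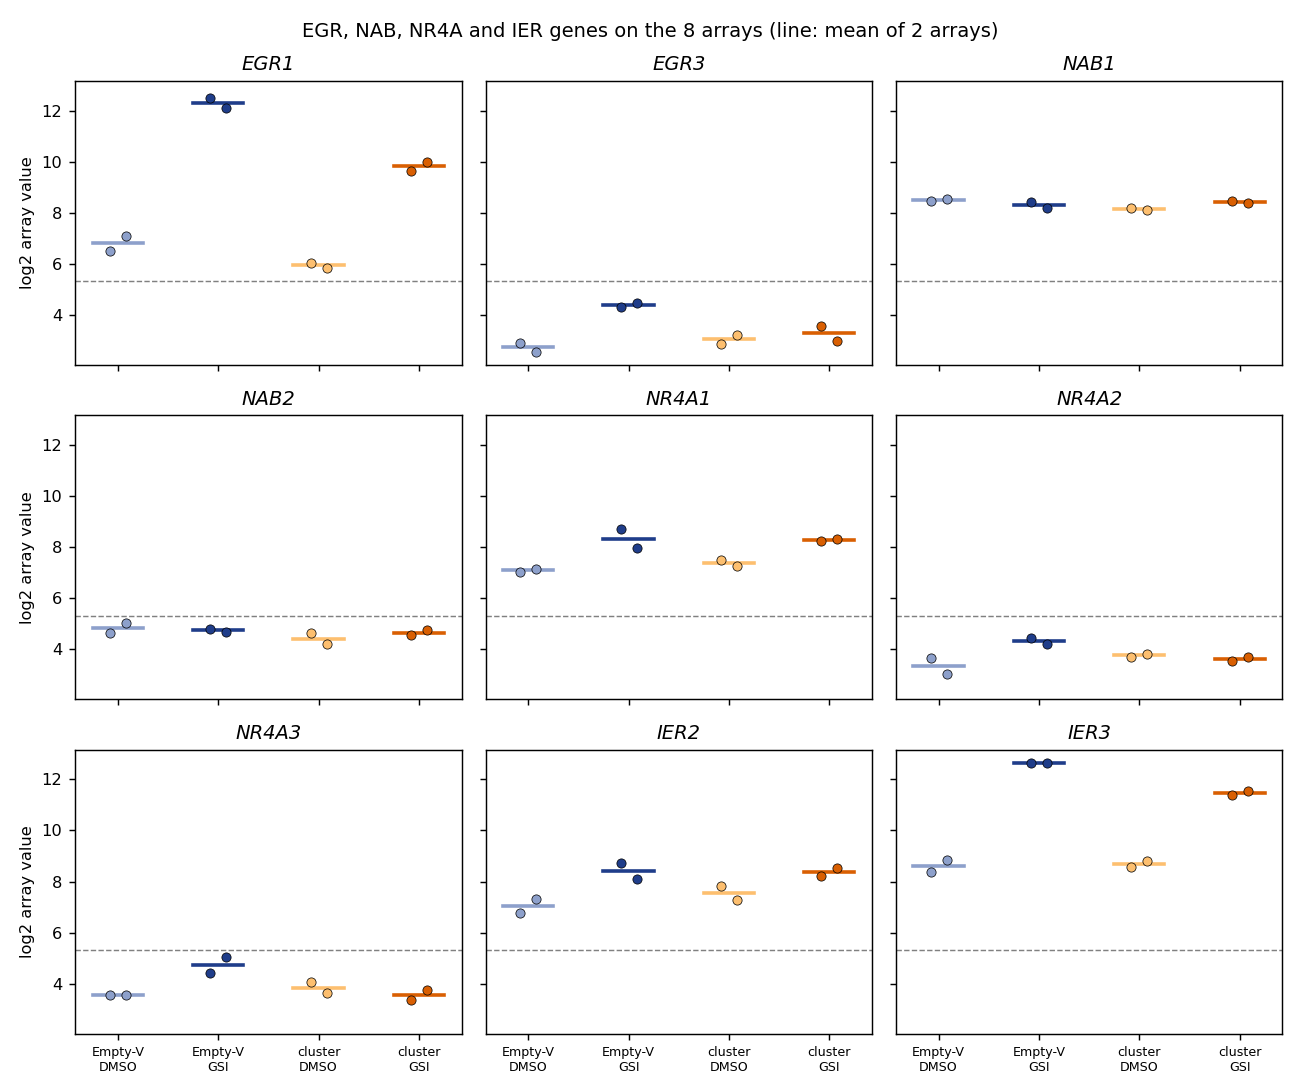
Log2 array values of the 9 measured members (y axis, the same in each panel) on both arrays of each group (points, array 1 left), with the mean as a line and the median of all values, 5.32, dashed. EGR1 and IER3 reach 12.12 to 12.66 in Empty-V cells with GSI and lie between 9.64 and 11.55 in cluster cells with GSI.

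Across both vectors, 5 of the 9 members, EGR1, EGR3, NR4A1, IER2 and IER3, passed as higher with GSI in limma with Benjamini-Hochberg adjustment over all 21448 probe sets, against 4.35% of probe sets higher and 3.48% lower, and 0 members passed as lower. The arrays of 4 members, EGR1, NR4A1, IER2 and IER3, were higher without overlap, as were 6.4% of all probe sets, with 5.61% lower. Their log2 differences ran from 0.95 (SE 0.17) for EGR3 to 4.69 (SE 0.17) for EGR1, with 1.07 for NR4A1, 1.09 for IER2 and 3.42 for IER3. NR4A2 at 0.42 and NR4A3 at 0.45 did not pass. The median over the 9 members was 0.95 and that over all probe sets 0.0025. Since the members were chosen on this comparison, these counts are read no further.

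Within Empty-V cells, 7 members passed as higher, all but NAB1 and NAB2, and 0 as lower, beside 3.8% and 3.66% of all probe sets. The arrays of these 7 were higher with GSI without overlap and those of NAB1 lower, as were 25.6% and 24.5% of all probe sets, since 2 arrays against 2 often do not overlap. Within cluster cells, 2 members passed as higher, EGR1 and IER3, and 0 as lower, beside 0.96% and 0.606%. NAB1, NR4A1 and IER2 were also higher with GSI on both cluster arrays without overlap, but did not pass. Without overlap, 5 members were thus higher and 0 lower, beside 22.8% and 21.9% of all probe sets. The median over the members was 1.25 in the former and 0.27 in the latter. Leaving out 1 array left 4 members passing in Empty-V cells in 3 of 8 cases, namely without the first Empty-V array with GSI or without either Empty-V array with DMSO. EGR1, EGR3 and IER3 passed in each, and NR4A1, NR4A2, NR4A3 and IER2 were lost in at least 1.

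**Figure D3:**
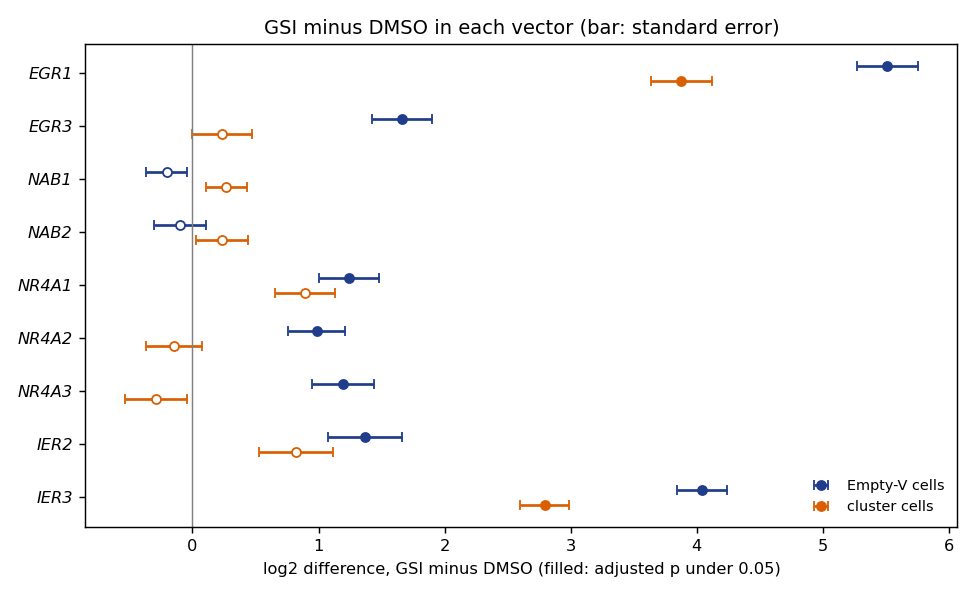
Log2 difference between GSI and DMSO for each measured member, with its standard error as a bar, in Empty-V and cluster cells; filled points have an adjusted p under 0.05. EGR1 is at 5.51 and 3.88 and IER3 at 4.04 and 2.80, and EGR3, NR4A2 and NR4A3 are away from 0 in Empty-V cells and near it in cluster cells.

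Between vectors under GSI, EGR1 and IER3 passed as lower in cluster cells and 0 members as higher, beside 0.573% lower and 0.499% higher among all probe sets. EGR3 (-1.11, SE 0.24), NR4A2 (-0.72, SE 0.22) and NR4A3 (-1.19, SE 0.24) also had both cluster arrays below both Empty-V arrays on the log2 scale, but did not pass. Arrays were thus lower without overlap for 5 members and higher for 0, beside 24.5% and 22.2% of all probe sets. NAB1, NAB2, NR4A1 and IER2 were between -0.08 and 0.13. The median over members was -0.72, and over all probe sets -0.015. The call of EGR1 was lost without the first cluster array with GSI (log2 difference -2.32, adjusted p = 0.065 in limma) or without the first or second Empty-V array with GSI (-2.30, 0.0508 and -2.70, 0.058). That of IER3 was lost with the set number as a block (adjusted p = 0.0802 in limma), with the 4 arrays alone (0.0684), and without any 1 array other than the Empty-V arrays with DMSO (0.0521 to 0.19).

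Between vectors under DMSO, 0 of the 9 members passed in limma, in either direction, beside 0.0186% higher and 0.0233% lower among all probe sets. At an unadjusted p under 0.05, 1 member, EGR1, and 2092 of all probe sets were counted. NAB1 (-0.35, adjusted p = 0.522 in limma) and NAB2 (-0.42, adjusted p = 0.553) were lower on the log2 scale without overlap, as was EGR1. NR4A1 (0.30, adjusted p = 0.729 in limma), NR4A2 (0.41, adjusted p = 0.587) and NR4A3 (0.30, adjusted p = 0.736) were higher without overlap. These are 3 members lower and 3 higher without overlap, beside 22.1% and 19.4% of all probe sets. EGR3 at 0.32 and IER2 at 0.51 (adjusted p = 0.608 in limma) had overlapping arrays.

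**Figure D4:**
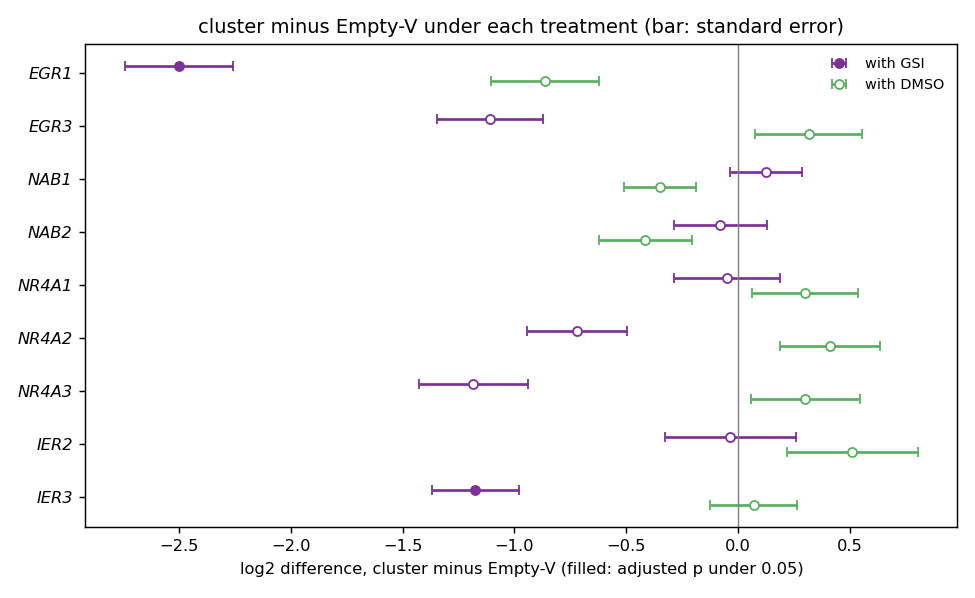
Log2 difference between cluster and Empty-V cells for each measured member, with its standard error as a bar, under GSI and under DMSO; filled points have an adjusted p under 0.05. With GSI, EGR1 at -2.50 and IER3 at -1.18 are filled, and with DMSO no point is.

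Whether the response to GSI differed between vectors was read from the difference of both GSI differences, which shares its arrays with every comparison above. It was -1.64 (SE 0.34, 95% interval -2.40 to -0.87) for EGR1, -1.43 (SE 0.34) for EGR3, -1.49 (SE 0.34) for NR4A3 and -1.25 (SE 0.28) for IER3, each with an adjusted p of 0.217 in limma. NR4A2 followed at -1.13 (SE 0.32, adjusted p = 0.256 in limma). NR4A1 at -0.35 and IER2 at -0.55 were smaller in size, and NAB1 at 0.48 and NAB2 at 0.34 were above 0. None of the 9 passed, 5 had an unadjusted p under 0.05, as did 2698 of all probe sets, and 0% of probe sets passed as higher and 0.028% as lower. With an intensity trend and a robust fit, EGR1 (adjusted p = 0.0378 in limma) and IER3 (0.0369) passed. This difference contains that between vectors under GSI, on which EGR1 was chosen. Its values are therefore a description of the members and no test of them.

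The same comparisons were read in genes that share the inducing signals. Of 38 other immediate early genes, 36 were measured, 6 passed as higher with GSI across vectors and 0 as lower, beside 4.35% and 3.48% of all probe sets. The median log2 difference was 0.08, and 0.0025 over all probe sets. The 3 largest were ZFP36 (1.81, SE 0.14), which promotes mRNA decay, the early activation antigen CD69 (1.69, SE 0.13) and TNFAIP3 (0.98, SE 0.11), which restrains NF-κB. FOS, named after its values were seen, had a log2 difference of 0.03 (SE 0.20). Leaving out 1 array left 3 of the 6 in 3 of 8 cases, without cluster DMSO array 1, Empty-V GSI array 2 or Empty-V DMSO array 1. Between vectors under GSI, 3 passed as lower and 0 as higher, beside 0.573% and 0.499% of all probe sets, namely CD69 (-1.57, SE 0.19), ZFP36 (-1.10, SE 0.19) and ZFP36L1 (-1.02, SE 0.16), and each lost its call when any 1 of the 4 arrays with GSI was left out. ZFP36 and ZFP36L1 also lost their calls when either Empty-V array with DMSO was left out. With the set number as a block, 1 of the 3, CD69, passed. Between vectors under GSI the median log2 difference of the list was -0.01, against -0.015 over all probe sets. Without dim probe sets (mean under the median of all values), 2 of the list passed as higher and 3 as lower there. An intensity trend and a robust fit gave 1 higher and 3 lower.

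The negative feedback genes of ERK, a common readout of its activity, were measured in full, 12 of 12, and 4 passed as higher with GSI and 0 as lower, beside 4.35% and 3.48% of all probe sets. The median of the list, as a log2 difference, was 0.51, against 0.0025 over all probe sets. The 4 that passed included the ERK phosphatase DUSP6 (2.39, SE 0.16), the signalling inhibitor SPRY1 (1.01, SE 0.11) and DUSP4 (0.83, SE 0.17), which lost its call in 3 of 8 fits without 1 array. Without dim probe sets, a filter that removes SPRY1 and DUSP4, 2 of the list passed as higher with GSI. Between vectors under GSI 0 of the 12 passed, beside 0.573% of all probe sets lower and 0.499% higher. The median log2 difference there was -0.22, against -0.015 over all probe sets. With an intensity trend and a robust fit, 3 passed as lower.

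Among 24 of 31 measured components of the ERK and SRF pathway, 5 passed as higher with GSI and 0 as lower, beside 4.35% and 3.48% of all probe sets. The median log2 difference of the list was 0.10, against 0.0025 over all probe sets. The largest log2 difference was that of RASGRP1 (2.57, SE 0.13), which activates RAS downstream of the T-cell receptor, followed by the SRF partner ELK3 (1.17, SE 0.23) and NFATC3 (0.73, SE 0.11). With the set number as a block, 3 of the list passed, and with 1 array left out 2 to 4 did, ELK3 losing its call in 3 of the 8 cases. ELK4 (-1.07, SE 0.16) and NFATC1 (-0.96, SE 0.17) passed as lower with the cluster under GSI, 2 genes of the list beside 0.573% of all probe sets, and lost that call with the block and without any 1 of the 8 arrays.

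Genes known as EGR targets in T cells were measured for 14 of 16. With GSI across vectors 5 passed as higher and 1 as lower, beside 4.35% and 3.48% of all probe sets, at a median log2 difference of 0.19 against 0.0025. Those that were higher included ID3 (2.26, SE 0.12), an inhibitor of E proteins that EGR1 induces in thymocytes, NDRG1 (1.06, SE 0.22) and SOCS1 (0.94, SE 0.15). The means of NDRG1 and SOCS1 lay under the median of all values. NDRG1 lost its call in 5 of 8 fits without 1 array. CDKN1A, a cell cycle inhibitor, passed as lower (-0.58, SE 0.15, adjusted p = 0.0495 in limma) at values from 3.08 to 4.34. It was named after its values were seen. Its call was lost with the set number as a block and in most fits without 1 array. Under GSI, ID3 was lower with the cluster (-1.17, SE 0.17), the 1 gene of the list that passed, beside 0.573% of all probe sets lower, and this call was lost with the block and without any 1 of the 4 arrays with GSI.

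Genes with values most like those of EGR1 were sought by the root mean square difference over the 8 arrays. Each probe set was centred on its own mean and not scaled. The nearest were the chemokine receptors CCR9 (0.37) and CCR4 (0.57), the transmembrane protein CRIM1 (0.73), the adhesion receptor CD48 (0.76) and the DNA-binding protein ARID5B (0.78). IER3, at 0.87, was the nearest member, and the other 7 were 2.02 to 2.52 away. CCR9, which guides thymocytes and gut-homing T cells, had group means of 8.11 and 13.04 in Empty-V cells with DMSO and GSI and of 7.30 and 11.49 in cluster cells. These distances describe likeness over 8 arrays, in which the size of a change counts as well as its direction, and were not tested. Members with small changes lie far from EGR1 whatever their pattern.

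**Figure D5:**
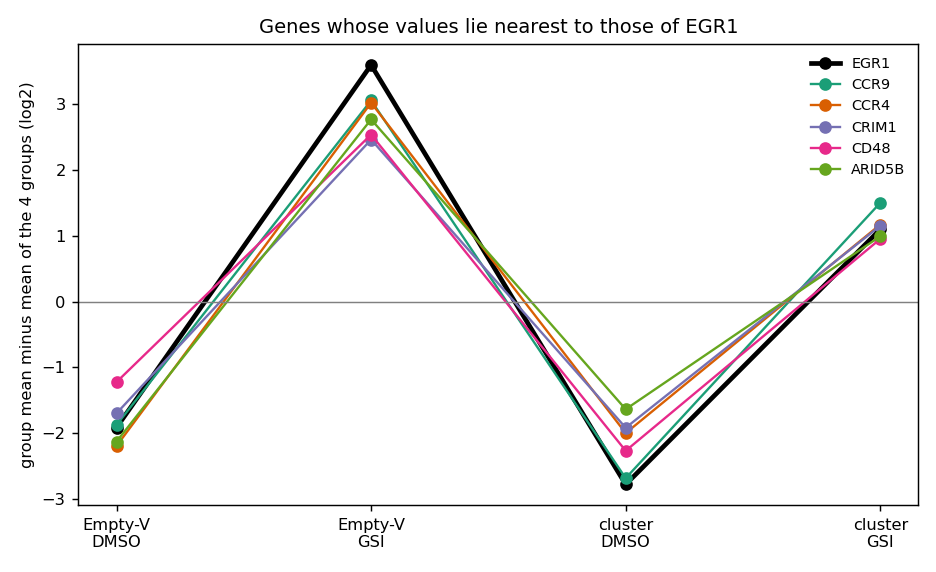
Group means, each minus the mean of the 4 groups (log2, y axis), of EGR1 and the 5 genes nearest to it. All 6 lines peak in Empty-V cells with GSI and have a second, lower rise in cluster cells with GSI.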

How the data were processed

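Expression was measured on Clarion S Human arrays of CUTLL1 cells, 8 in 4 groups of 2, assigned by their labels. The authors summarized probes to gene-level log2 values with RMA in Transcriptome Analysis Console, as named in the submitters' processing notes, and the deposited values were used without further scaling. RMA brings arrays to one distribution, so a shift of all genes together would not be seen. Values lay between 1.97 and 18.49. Of 21448 probe sets, 17709 had 1 gene symbol in the platform annotation and 3739 none. Positions, promoters and miRNAs are from RefSeq tables (GRCh38.p14), matched by symbol or name.

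A linear model with 1 mean for each of the 4 groups was fitted to every probe set with lmFit and eBayes of limma 3.58.1 (R 4.3.3). Residual degrees of freedom were 4, to which the prior added 5.29. Each of 6 comparisons had its own Benjamini-Hochberg adjustment, taken across every probe set, and passed means an adjusted p under 0.05. Intervals are 95% and unadjusted. The fit was tested on simulated data. Figures were drawn with Python 3.11.15, numpy 2.4.6 and matplotlib 3.10.9.

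The members and gene lists were chosen with earlier results of these data known. All listed members were named, with the 5 genes of smallest distance to EGR1, up to 3 genes of each list with the largest change among those that passed, and NRARP and HES1 as checks of GSI. FOS, CDKN1A and CD68 were named after their values were seen. HES1 fell from 9.68 to 9.85 with DMSO to 5.89 to 6.15 with GSI in Empty-V cells, and from 9.32 to 9.68 to 6.69 to 6.91 in cluster cells.

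Labels number the arrays of each group, and the supplement describes independent biological experiments, so same-numbered arrays were taken as pairs for an alternative with the set as a block. Their deviations from the group means correlated at r between -0.240 and -0.192 in all 6 pairs of groups. Further alternatives were dropping each array in turn, fitting the 4 compared arrays alone, quantile normalization, a robust fit with an intensity trend, removal of dim probe sets (mean under the median of all values), and an adjusted p under 0.1. The same alternatives for the context lists were added after seeing the data. For the cluster under GSI, removal of dim probe sets left 1 gene of the ERK and SRF pathway list higher and 2 lower. The robust fit with an intensity trend gave the same counts.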

Additional observations from a re-analysis of the deposited data

Results flagged for a closer look

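NAB1 moved in opposite directions with GSI on both pairs of arrays, lower in Empty-V cells (log2 difference -0.21) and higher in cluster cells (0.27), a difference of 0.48 (SE 0.23). The difference did not pass (adjusted p = 0.425 in limma).

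With the cluster, NR4A2 was higher under DMSO (log2 difference 0.41) and lower under GSI (-0.72) without overlap of the arrays, a difference of -1.13 (SE 0.32, adjusted p = 0.256 in limma). NR4A3 did the same, at 0.30 and -1.19, a difference of -1.49 (SE 0.34, adjusted p = 0.217 in limma). Neither difference passed, and the values of both genes lay below the median of all values.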

How the results depend on the processing

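Among 660 member values under the alternatives, 618 kept their direction and their side of the threshold, 24 lost the call, 6 gained one and 12 changed sign, and the cause was not tested. The count of members passing was 5 for GSI across vectors without any 1 array, 4 to 7 (main 7) in Empty-V cells, 2 to 3 (main 2) in cluster cells, 0 to 2 (main 2) for the cluster under GSI, and 0 under DMSO and for the difference of responses. Without dim probe sets it was 4 in Empty-V cells, since that filter keeps EGR1, NR4A1, IER2 and IER3 of those 7. For the cluster under GSI, 1 member passed with the set number as a block or with only the 4 arrays compared, and 4 at a threshold of 0.1 or with an intensity trend and a robust fit. The last setting gave 2 for the difference of responses. The block left 6 members in Empty-V cells, where NR4A2 was lost (adjusted p = 0.0588 in limma). Apart from this and the cluster under GSI, it changed no member count. All sign changes were of members that had not passed, in fits without 1 array. Over these fits, the log2 difference with GSI across vectors ran from -0.0225 to 0.0875 for NAB1 and from -0.035 to 0.17 for NAB2, and in Empty-V cells from -0.305 to 0.105 for NAB2. In cluster cells that of EGR3 ran from -0.06 to 0.53. For the cluster under GSI it ran from -0.175 to 0.015 for NAB2, from -0.425 to 0.325 for NR4A1 and from -0.36 to 0.29 for IER2. It ran from -0.165 to 0.305 for IER3 under DMSO, and from -0.725 to 0.025 for NR4A1 in the difference of responses. EGR3, NAB2, NR4A2 and NR4A3 lay below the median of all values on every array, where the size of a fold is less certain. No background level was determined.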
